A study of Mus musculus with 11 samples.

Results

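Inhibitory and checkpoint receptors of mouse microglia are described here as 10 genes, namely Siglech, Siglece, Cd33, Havcr2, Lag3, Cd200r1, Sirpa, Cd274, Pdcd1lg2 and Lair1. They were found by matching the RefSeq accession of each array probe to a gene symbol, and all 10 of them were among the 19565 genes tested. The arrays held 25 probes for them. A probe was kept if at least 1 group had it well above background throughout, and the 22 kept were averaged per gene. All values are log2 of the quantile-normalised signal intensity, in arbitrary units, unless a fold is named.

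RNA was hybridised to 11 single-colour Agilent arrays in 4 groups of C57BL/6N mice. A_FACS (2 arrays) was microglia of adult females aged 12 to 24 weeks, sorted fresh on intermediate CD45 and high CX3CR1, and NB_FACS (3 arrays) was microglia sorted the same way from newborns of both sexes at postnatal days 1 to 3. NB_Control and NB_Stim (3 arrays each) were newborn microglia grown on mixed glia in flasks of 2 to 3 brains with 20% L-929 conditioned medium, shaken off for 5.5 h, and then kept for 1 day in medium with 10% serum. During that day NB_Stim also received 100 ng/mL each of the human cytokines IL-34, TGF-β1 and CX3CL1.

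Flasks were harvested on days 18, 26 and 34, and the harvest behind each array is not given in the sources used here. Sorted and cultured cells therefore differed in the way they were collected and in days since birth as well as in culture, and these cannot be told apart. In the same way age cannot be told apart from sex between A_FACS and NB_FACS. In bulk RNA, fewer cells of a type and less RNA per cell cannot be told apart.

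Inhibitory receptors of myeloid cells read ligands on neighbouring cells, such as sialic acids, CD47, CD200 or collagen. Many of them, though not all, carry tyrosine motifs in their tails that recruit the phosphatases SHP-1 and SHP-2. In the brain, neurons display several of these ligands, and the receptors are known as restraints on phagocytosis and cytokine release by microglia. The set is not uniform in its signalling. For example, Siglec-H, a marker of microglia and of plasmacytoid dendritic cells, lacks an inhibitory motif and signals through the activating adaptor DAP12. Cd274 and Pdcd1lg2 encode the ligands PD-L1 and PD-L2 of the receptor PD-1 rather than receptors of this kind.

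The probes of Siglech are shown first because they differed in size of response. They are the 6 designed probes as deposited with the array, each named by the RefSeq transcript it was designed on and written 5′ to 3′ in lower case with no part marked. Their genome positions and strand were not determined here.

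Siglech NM_178706.4: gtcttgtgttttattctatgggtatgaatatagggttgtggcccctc
Siglech XM_006540827.1: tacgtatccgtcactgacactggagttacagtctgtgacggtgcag
Siglech XM_006540828.1: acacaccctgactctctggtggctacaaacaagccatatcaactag
Siglech XM_006540830.1: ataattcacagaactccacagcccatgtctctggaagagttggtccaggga
Siglech XM_006540831.1: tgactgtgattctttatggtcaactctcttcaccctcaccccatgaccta
Siglech XM_006540832.1: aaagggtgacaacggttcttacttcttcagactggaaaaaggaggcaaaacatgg

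The longest run of bases that a probe of the 10 genes shared with a probe of another gene was 13 to 16. Siglece had 5 probes, Lair1 had 6, Cd33 had 2, and each of the other members had 1. The probe of Lag3 was designed on XR_377427.1, a transcript model of the non-coding class in RefSeq, so the array does not say how much of its signal came from the coding messenger RNA.

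Promoter windows from RefSeq (GRCm38.p6), reaching from 250 bases before to 50 bases after the start site, were held for 7 of the 10 members. They are shown for the 4 members that lie on chromosome 7 and were lower in culture, and for Cd274, a member that was higher in culture. Each is written 5′ to 3′ on the strand of its gene, and capitals mark matches to any of the motifs searched on both strands: GAGGAAG (a purine box of the kind PU.1 binds), GAAANNGAA (the core of the interferon-stimulated response element), TTCNNNGAA (the interferon gamma activated site) and CAGACA (an element of the kind SMAD proteins bind). No 2 of these matches overlapped in the windows shown.

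Siglech, chr7:55767934-55768233, plus strand: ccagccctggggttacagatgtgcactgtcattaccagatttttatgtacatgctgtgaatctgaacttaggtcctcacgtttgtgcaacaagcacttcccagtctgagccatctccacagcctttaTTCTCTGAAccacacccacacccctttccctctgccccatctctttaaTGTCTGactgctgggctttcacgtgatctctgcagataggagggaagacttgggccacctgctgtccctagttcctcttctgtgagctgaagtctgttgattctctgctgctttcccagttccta
Siglece, chr7:43660112-43660411, minus strand: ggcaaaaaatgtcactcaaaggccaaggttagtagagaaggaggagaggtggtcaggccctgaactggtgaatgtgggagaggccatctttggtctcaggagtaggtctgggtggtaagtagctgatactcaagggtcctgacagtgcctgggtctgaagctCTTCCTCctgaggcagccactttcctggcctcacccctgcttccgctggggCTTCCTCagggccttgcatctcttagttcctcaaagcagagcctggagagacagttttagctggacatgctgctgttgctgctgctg
Cd33, chr7:43533122-43533421, minus strand: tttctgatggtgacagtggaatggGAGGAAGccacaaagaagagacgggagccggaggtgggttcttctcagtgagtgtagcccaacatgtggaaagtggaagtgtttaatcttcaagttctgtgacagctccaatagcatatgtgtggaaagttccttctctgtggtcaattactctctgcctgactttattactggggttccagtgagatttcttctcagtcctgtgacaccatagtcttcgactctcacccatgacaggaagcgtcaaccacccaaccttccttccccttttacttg
Lair1, chr7:4063155-4063454, minus strand: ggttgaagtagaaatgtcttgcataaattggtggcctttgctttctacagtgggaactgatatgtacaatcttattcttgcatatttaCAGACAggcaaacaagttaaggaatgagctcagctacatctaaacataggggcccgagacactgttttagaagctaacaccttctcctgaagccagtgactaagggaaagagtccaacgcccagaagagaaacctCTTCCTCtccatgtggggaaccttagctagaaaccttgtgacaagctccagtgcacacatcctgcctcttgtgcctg
Cd274, chr19:29367188-29367487, plus strand: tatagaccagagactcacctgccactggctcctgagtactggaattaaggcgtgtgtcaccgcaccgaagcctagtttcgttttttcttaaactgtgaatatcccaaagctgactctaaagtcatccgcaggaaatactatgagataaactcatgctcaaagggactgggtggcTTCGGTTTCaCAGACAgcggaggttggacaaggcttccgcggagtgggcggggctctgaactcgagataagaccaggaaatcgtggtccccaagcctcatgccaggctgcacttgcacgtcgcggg

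GAGGAAG was found 2 times in the window of Siglece and once each in those of Cd33, Havcr2 and Lair1, and 13.6% of 32851 promoter windows of the same length hold it. CAGACA was found once each in the windows of Siglech, Havcr2, Cd274 and Lair1, against 21% of all windows. TTCNNNGAA was found only in the window of Siglech among the 7, at position -123 from the start site, against 8.3% of all windows. GAAANNGAA was found once, in the window of Cd274 at position -76, against 8.56% of all windows. With 1 more A at its end, as in the full element, it was found in 0 of the 7 and in 3.44% of all windows. A match is a description of letters and not of binding.

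On each array 66.8% to 80.5% of the 60037 probes were well above background. Slide 1 held 8 arrays and slide 2 held replicate 3 of each newborn group. The labelled cell type was checked against 8 microglia markers, of which 7 had a probe, and all 7 were well above background on every array of every group. Cx3cr1 is one of the 8 and was part of the sort. The summed intensity of the 7 was 237000 to 242000 in A_FACS, 129000 to 135000 in NB_FACS, 53800 to 65200 in NB_Control and 117000 to 126000 in NB_Stim. Border macrophage markers (8) summed to 1270 to 1650 in A_FACS, 12400 to 14900 in NB_FACS, 45700 to 89600 in NB_Control and 20500 to 34100 in NB_Stim, and fibroblast markers (6) to 116 to 324, 700 to 881, 10600 to 14700 and 5910 to 13800. Of the border macrophage list, Mrc1 had group means of 7.87 in A_FACS, 13.15 in NB_FACS, 13.33 in NB_Control and 8.08 in NB_Stim. Lyve1 had 4.07, 7.82, 3.02 and 2.81, so these defining markers did not follow the sum in culture. Markers of conventional dendritic cells (7 of 8 with a probe) summed to 27000 to 38400 in A_FACS, 5260 to 7770 in NB_FACS, 3650 to 6060 in NB_Control and 4960 to 7770 in NB_Stim. The defining markers of that list, Flt3 (group means 3.12 to 3.71) and Zbtb46 (4.45 to 5.33), were not highest in A_FACS. The part of these cell types in the differences below was not tested.

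Over the 4 groups, 8 of the 10 members differed by limma's F test at an adjusted p under 0.05, against 48.8% of all genes. Lag3 (adjusted p = 0.346) and Pdcd1lg2 (adjusted p = 0.699) did not pass. In NB_Control against NB_FACS, 7 members passed limma's moderated test (Benjamini-Hochberg adjusted p under 0.05 over all genes), against 29.7% of all genes. Of these, 2 were higher in culture (Cd200r1 and Cd274) and 5 lower (Siglech, Siglece, Cd33, Havcr2 and Lair1), against 15.8% and 13.9% of all genes. The groups did not overlap for 8 members, against 44.2% of all genes. The median difference over the 10 was -0.51, and over all genes 0.087.

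With the cytokines, in NB_Stim against NB_Control, 3 members passed, against 3.4% of all genes: Havcr2 was higher, against 1.4% of all genes, and Cd200r1 and Sirpa were lower, against 2%. The groups did not overlap for 5 members, against 24% of all genes. In NB_Stim against NB_FACS 6 members passed, Cd274 being higher and Siglech, Siglece, Cd33, Sirpa and Lair1 lower, against 31.1% of all genes (16% higher and 15.1% lower). There, 7 members did not overlap, against 43.5%. In A_FACS against NB_FACS, Siglech, Siglece, Havcr2, Cd274 and Lair1 were higher and none was lower, so that 5 passed against 22.7% of all genes (9.75% higher and 12.9% lower). The groups did not overlap for 7 members, against 51.2% of all genes. These comparisons share samples, and the agreement or opposition of their differences was not tested.

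**Figure D1:**
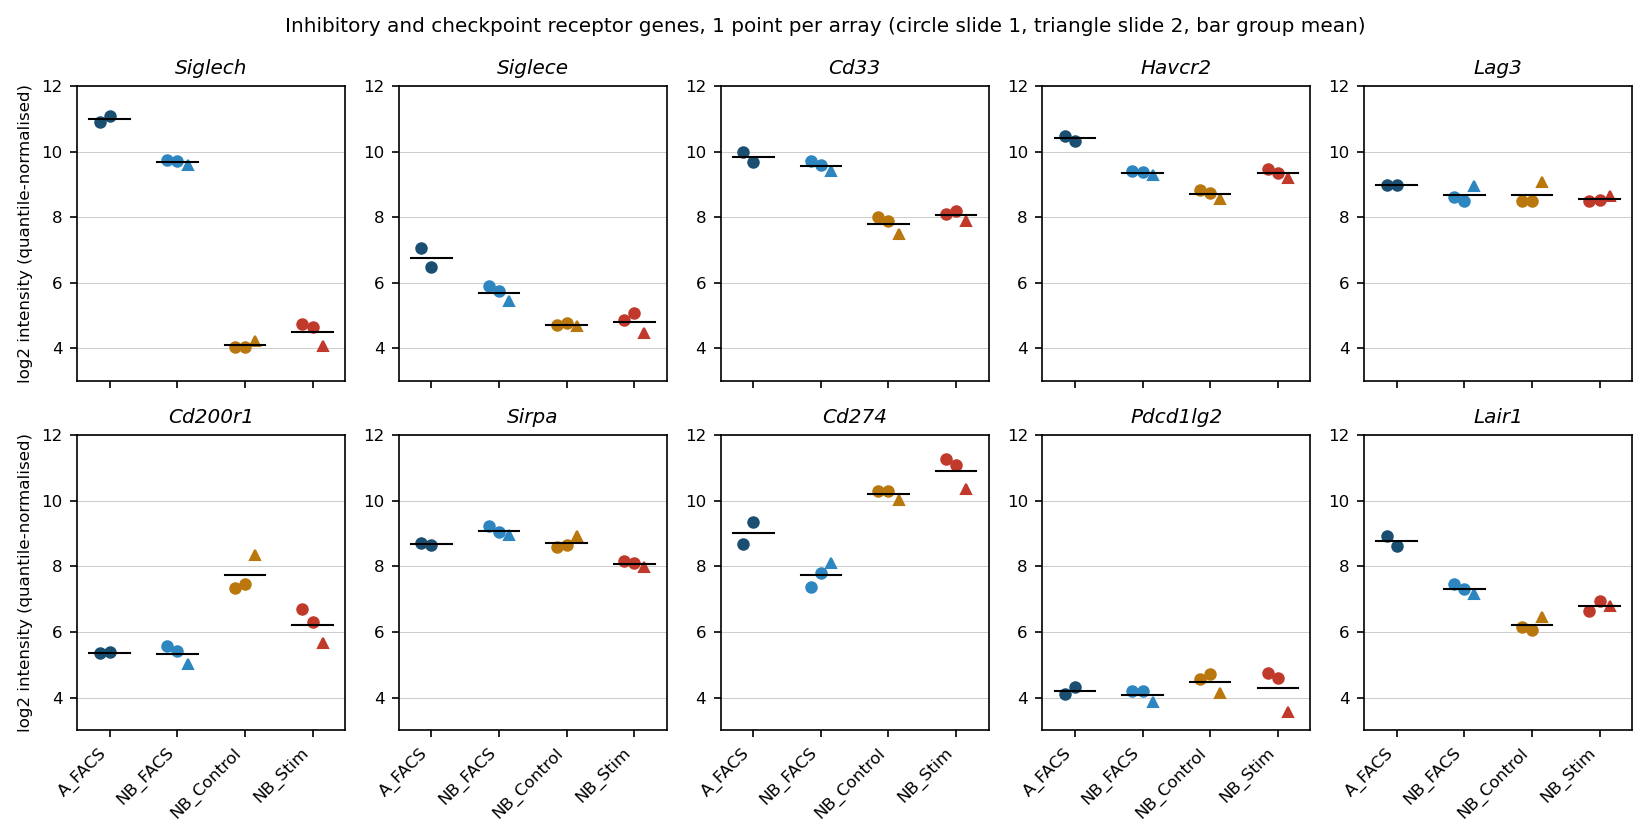
Log2 intensity (vertical axis) of each of the 10 members in the 4 groups (horizontal axis), 1 point per array, with circles for slide 1, triangles for slide 2 and a bar at the group mean. Siglech lay between 9.58 and 11.09 in sorted cells and between 4.03 and 4.75 in cultured cells, whereas Lag3 stayed between 8.48 and 9.07 on all arrays.

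**Figure D2:**
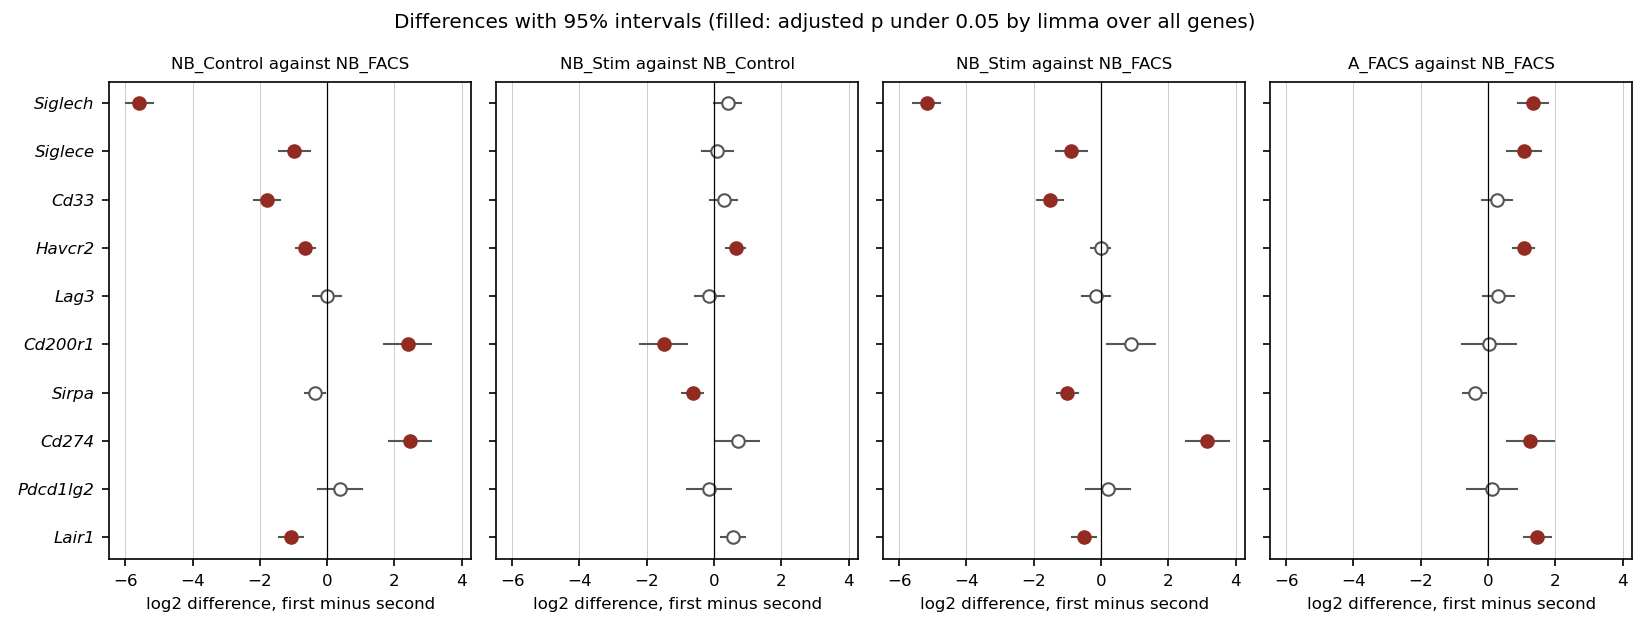
Log2 difference between group means (horizontal axis) of each member with its 95% interval, in 4 comparisons. Filled points passed limma's moderated test at an adjusted p under 0.05; in NB_Control against NB_FACS the points run from -5.58 for Siglech to 2.46 for Cd274.

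Among the sialic acid receptors, Siglech was lower in both cultured groups than in sorted cells and higher in adults than in newborns. Its level was 10.91 and 11.09 in the A_FACS arrays, 9.73, 9.70 and 9.58 in NB_FACS, 4.04, 4.03 and 4.21 in NB_Control, and 4.75, 4.64 and 4.07 in NB_Stim. Every sorted array lay above every cultured array, the adults lay above the newborns, and the cultured groups overlapped. The mean over its 6 probes was 5.58 lower in NB_Control than in NB_FACS (SE 0.18, limma adjusted p = 1.59e-07) and 5.18 lower in NB_Stim (adjusted p = 2.77e-07). It was 1.33 higher in A_FACS than in NB_FACS (SE 0.20, adjusted p = 0.00142). The difference of NB_Stim from NB_Control was 0.40 (95% interval 0 to 0.80, limma adjusted p = 0.336), so that the order was A_FACS, NB_FACS and then both cultured groups, which did not differ beyond their spread.

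That mean rests partly on signals not well above background. On the probes of XM_006540827.1, XM_006540830.1 and XM_006540832.1 none of the NB_Control arrays was well above background, and NB_FACS was at least 24.2-fold, at least 471-fold and at least 294-fold higher. These bounds set the mean of the bright group against, for each dim array, the higher of its own signal and the lowest signal well above background. The other 3 probes were measured in both groups, and each fell when fitted alone. The probe of XM_006540828.1 was 54.2-fold higher in NB_FACS, with a log2 difference of -5.76 (limma adjusted p = 2.47e-06 over probes). The probe of NM_178706.4 differed by -1.52 (adjusted p = 6.49e-05) and that of XM_006540831.1 by -0.85 (adjusted p = 0.00422). All 6 probes passed, against 25.6% of all probes. With only the probes well above background on all arrays the difference of the gene was -2.71 (adjusted p = 1.81e-06), with the brightest probe alone it was -1.52 (adjusted p = 3.56e-05), and after normexp background correction it was -3.38 (adjusted p = 1.4e-08).

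The probes also set apart the cultured groups in different ways. On the probe of XM_006540830.1, NB_Control read 2.93, 2.96 and 3.08, with no array well above background, and NB_Stim read 4.12, 4.0 and 3.71, with 2 arrays above it. NB_Stim was at least 1.53-fold higher there (limma adjusted p = 0.0115 over probes), and no other Siglech probe passed, against 2.49% of all probes. On the probe of XM_006540832.1 the NB_Stim arrays read 4.26, 4.28 and 1.43, the last on slide 2 and not well above background. On the gene's mean, the difference of NB_Stim from NB_Control was 0.66 within slide 1 (adjusted p = 0.0248) and -0.14 within slide 2, and without replicate 3 of NB_Stim it was 0.60 (adjusted p = 0.0484).

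**Figure D3:**
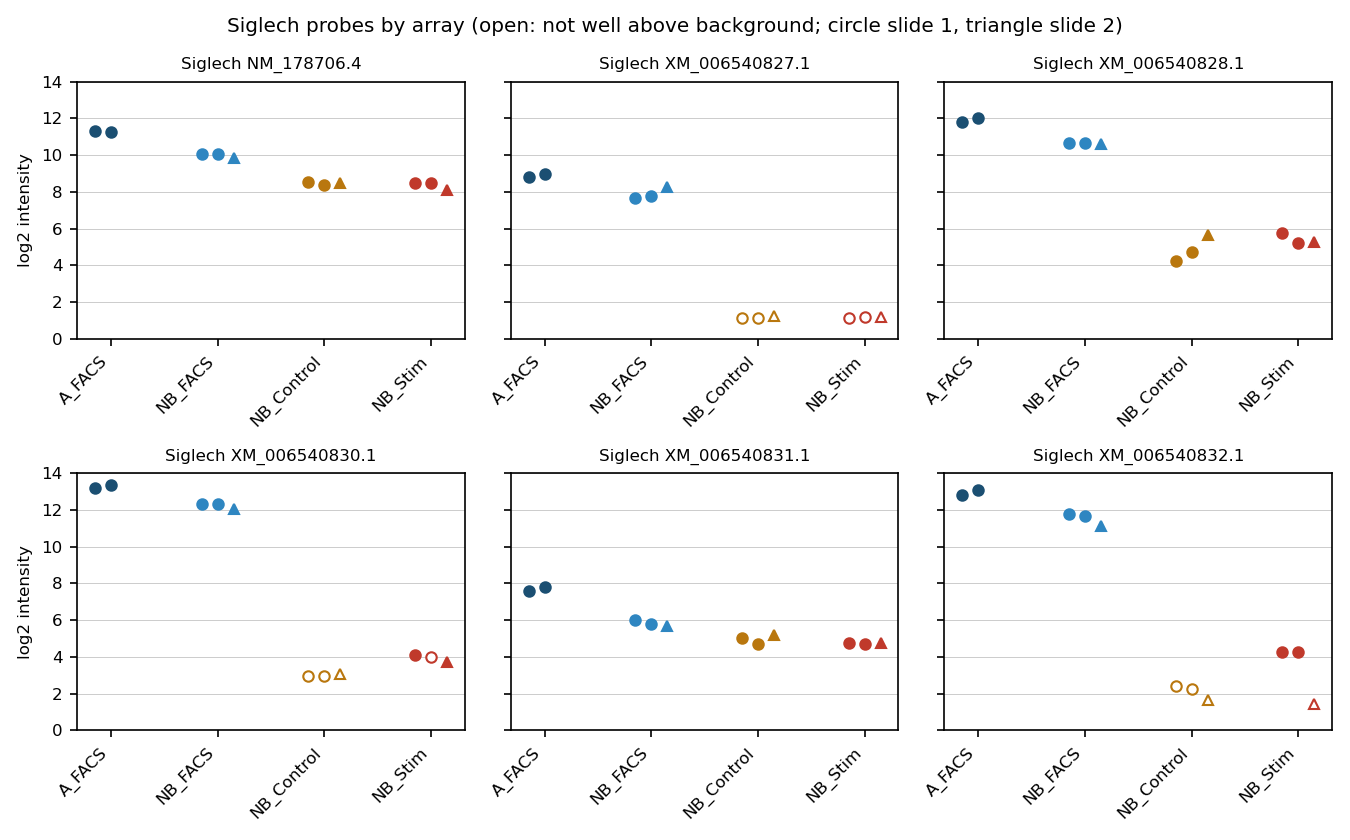
Log2 intensity (vertical axis) of the 6 Siglech probes by group (horizontal axis), 1 point per array, open where the probe was not well above background. On the probes of XM_006540827.1, XM_006540830.1 and XM_006540832.1 all NB_Control points are open, while the probe of NM_178706.4 read 8.38 to 8.52 in NB_Control and 9.83 to 10.04 in NB_FACS.

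Siglech also marks plasmacytoid dendritic cells, and defining markers of those cells were measured beside it. Ly6d had group means of 6.53 to 6.79 and Ccr9 of 7.45 to 7.58 over the 4 groups. The summed intensity of the 8 markers of that list was 3940 to 7570 in A_FACS, 5330 to 6170 in NB_FACS, 11100 to 13900 in NB_Control and 13600 to 14700 in NB_Stim. The sum was higher in both cultured groups, where Siglech was low. That rise came from other genes of the list, as Ly6d and Ccr9 were nearly level over the groups. The part of such cells in the Siglech differences was not tested.

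Siglece, an inhibitory receptor for sialic acids with tyrosine motifs in its tail, was also lower in culture. Its level was 7.05 and 6.47 in A_FACS, 5.91, 5.74 and 5.45 in NB_FACS, 4.72, 4.76 and 4.69 in NB_Control, and 4.87, 5.08 and 4.48 in NB_Stim. Each sorted group lay above both cultured groups without overlap, and the adults lay above the newborns. NB_Control was lower than NB_FACS by a difference of -0.97 (SE 0.21, limma adjusted p = 0.00519), and NB_Stim by -0.89 (adjusted p = 0.00842). NB_Stim and NB_Control differed by 0.09 (95% interval -0.37 to 0.55, adjusted p = 0.929). A_FACS was 1.06 above NB_FACS (SE 0.23, adjusted p = 0.0091), a call lost without replicate 1 of A_FACS (adjusted p = 0.0916) and with Tukey's adjusted test (adjusted p = 0.082).

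The Siglece probes did not move alike. In NB_Control against NB_FACS the probe of NM_031181.2 differed by -1.28 (limma adjusted p = 0.00204 over probes) and that of XM_006541318.1 by -1.40 (adjusted p = 0.0316). The probe of XM_006541321.1, the brightest, read 8.38, 8.23 and 8.45 in NB_FACS and 7.58, 7.63 and 8.47 in NB_Control, a difference of -0.46 that did not pass (adjusted p = 0.257). Its replicate 3 in NB_Control, on slide 2, lay with the sorted cells. With this probe alone, the gene passed neither in NB_Control against NB_FACS (adjusted p = 0.239) nor in NB_Stim against NB_FACS (adjusted p = 0.901) nor in A_FACS against NB_FACS (adjusted p = 0.0633). In all, the calls of NB_Control and of NB_Stim against NB_FACS were each lost under 2 of 28 alternative settings. After normexp background correction the difference of NB_Control from NB_FACS was -0.35 (adjusted p = 0.019). The probe of XM_006541319.1 was not well above background on any newborn array.

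Cd33, a sialic acid receptor whose human counterpart is tied to Alzheimer's disease risk, was lower in culture, and the test did not separate the ages. Its level was 9.98 and 9.68 in A_FACS, 9.72, 9.58 and 9.41 in NB_FACS, 7.99, 7.87 and 7.47 in NB_Control, and 8.11, 8.18 and 7.88 in NB_Stim. The sorted arrays overlapped with each other across age and all lay above the cultured arrays, which also overlapped with each other. NB_FACS was 3.47-fold above NB_Control, a log2 difference of -1.79 for culture (SE 0.17, limma adjusted p = 5.54e-05), and 2.85-fold above NB_Stim (adjusted p = 0.000152). The difference of NB_Stim from NB_Control was 0.28 (95% interval -0.11 to 0.67, adjusted p = 0.536), and that of A_FACS from NB_FACS 0.26 (interval -0.18 to 0.70, adjusted p = 0.388). Both probes were lower in NB_Control than in NB_FACS, that of NM_001111058.1 by a difference of -2.26 and that of XM_006540590.1 by -1.33.

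Lair1, an inhibitory receptor for collagen and C1q, was higher in adult than in newborn cells and lower in culture. Its level was 8.92 and 8.61 in A_FACS, 7.45, 7.31 and 7.16 in NB_FACS, 6.16, 6.05 and 6.46 in NB_Control, and 6.65, 6.94 and 6.79 in NB_Stim. None of the 4 groups overlapped, and they stood in the order A_FACS, NB_FACS, NB_Stim, NB_Control. A_FACS was 2.75-fold above NB_FACS, a log2 difference of 1.46 (SE 0.18, limma adjusted p = 0.000472). By probe that fold ran from 1.65 to 6.77, the largest on XM_006540183.1, above background on 2 of 3 NB_FACS arrays. With 1 probe left out the difference was 1.03 to 1.71, the smallest without that probe (limma adjusted p = 0.0204). NB_Control was lower than NB_FACS by a difference of -1.08 (SE 0.16, adjusted p = 0.000693), or -1.27 within slide 1 and -0.70 within slide 2. NB_Stim lay between them, at -0.51 from NB_FACS (adjusted p = 0.0356) and 0.57 from NB_Control (95% interval 0.21 to 0.93, adjusted p = 0.0997), so that the neighbours NB_Stim and NB_Control did not differ beyond the threshold.

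The call of Lair1 in NB_Stim against NB_FACS was lost when any 1 of its 4 probes was left out, and in 5 of the 11 fits that left out 1 array (adjusted p up to 0.124), namely replicate 1 or 2 of NB_FACS, replicate 1 of NB_Control, or replicate 1 or 3 of NB_Stim. It was also lost with scaling to the 75th percentile (adjusted p = 0.0514), with only the arrays of the groups compared (adjusted p = 0.0518), with Tukey's adjusted test (adjusted p = 0.143) and with cultured replicates 1 and 2 averaged (adjusted p = 0.101). By probe, NB_Control differed from NB_FACS by -1.12 on NM_001113474.1 (limma adjusted p = 0.000578), -0.61 on NM_178611.6 (adjusted p = 0.0124) and -2.11 on XM_006540179.1 (adjusted p = 0.0231). The fourth, XM_006540183.1, was above background on 2 of 3 arrays in each of those groups and did not pass (-0.49, adjusted p = 0.667). On XM_006540179.1 the array of slide 2 was the highest of its group in NB_FACS (9.13 against 7.92 and 7.67), in NB_Control (6.84 against 5.87 and 5.68) and in NB_Stim (8.75 against 6.65 and 7.0).

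**Figure D4:**
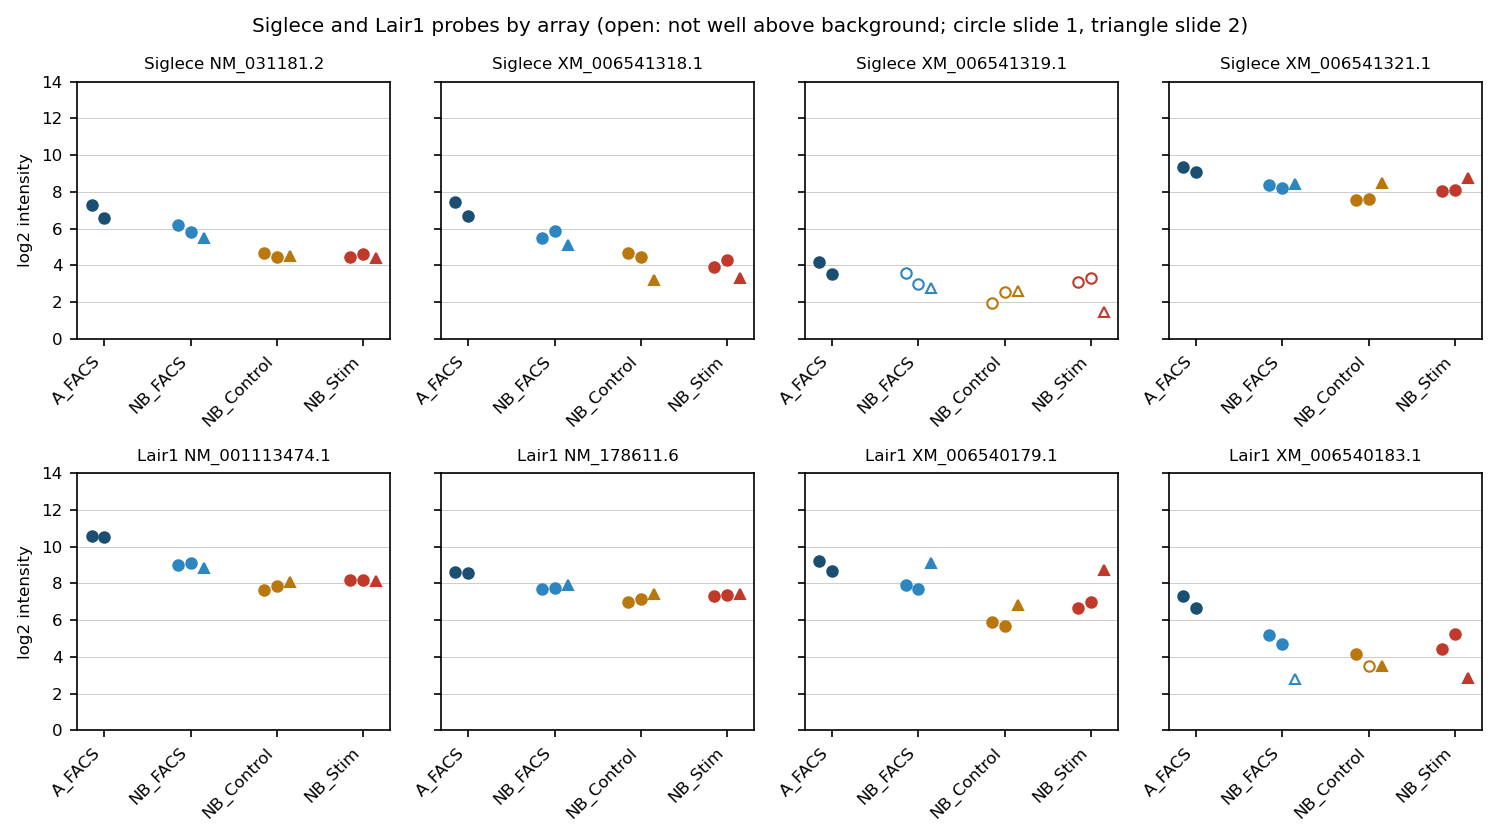
Log2 intensity (vertical axis) of the 4 Siglece and 4 Lair1 probes by group (horizontal axis), 1 point per array, open where not well above background, with triangles for slide 2. The probe of XM_006541321.1 of Siglece read 8.23 to 8.45 in NB_FACS and 7.58 to 8.47 in NB_Control, and the triangles of the Lair1 probe of XM_006540179.1 lie above the circles of their group.

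Of the ligands of Lair1, collagens passed the test in culture and C1q did not. Col1a1, a fibrillar collagen chain, was 37.6-fold higher in NB_Control than in NB_FACS (log2 difference 5.23, limma adjusted p = 2.3e-05), and Col3a1 16.0-fold higher (adjusted p = 2.57e-06). Both are among the 6 fibroblast markers summed above. The C1q chain genes C1qa (-0.25, adjusted p = 0.335), C1qb (-0.19, adjusted p = 0.391) and C1qc (-0.36, adjusted p = 0.457) did not pass in the same comparison. In A_FACS the probe of Col3a1 was not well above background, at least 9.32-fold below NB_FACS.

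Havcr2, which encodes the checkpoint receptor TIM-3, was the member that was lower in culture and higher with the cytokines by the test. Its level was 10.48 and 10.33 in A_FACS, 9.41, 9.37 and 9.27 in NB_FACS, 8.83, 8.73 and 8.55 in NB_Control, and 9.46, 9.36 and 9.20 in NB_Stim. The adults lay highest, the NB_Control arrays lowest, and NB_FACS and NB_Stim overlapped. NB_Control differed from NB_FACS by -0.65 (SE 0.13, limma adjusted p = 0.00418), and NB_Stim from NB_Control by 0.64 (SE 0.13, adjusted p = 0.0292). NB_Stim and NB_FACS differed by -0.01 (95% interval -0.30 to 0.28, adjusted p = 0.968). A_FACS was 2.08-fold above NB_FACS (log2 difference 1.06, adjusted p = 0.000901).

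The rise of Havcr2 with the cytokines was 0.63 within slide 1 and 0.65 within slide 2. It was no longer called when only the arrays of the groups compared were fitted (adjusted p = 0.0893), with Tukey's adjusted test (adjusted p = 0.0864), or in 6 of the 11 fits that left out 1 array (adjusted p up to 0.133), namely replicate 2 of NB_FACS, any replicate of NB_Control, or replicate 1 or 2 of NB_Stim. With cultured replicates 1 and 2 averaged the adjusted p was 0.257.

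Cd200r1, the receptor for the neuronal protein CD200, ran the other way. Its level was 5.36 and 5.38 in A_FACS, 5.56, 5.42 and 5.02 in NB_FACS, 7.35, 7.47 and 8.36 in NB_Control, and 6.70, 6.30 and 5.67 in NB_Stim. The NB_Control arrays lay highest, the NB_Stim arrays came next without overlap, and the sorted groups overlapped with each other. NB_Control was 5.27-fold above NB_FACS, a log2 difference of 2.40 (SE 0.32, limma adjusted p = 0.000344). NB_Stim was lower than NB_Control by a difference of -1.50 (adjusted p = 0.0321) and stood 0.89 above NB_FACS (95% interval 0.19 to 1.60, adjusted p = 0.0574). A_FACS and NB_FACS differed by 0.04 (interval -0.76 to 0.83, adjusted p = 0.958).

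The sizes for Cd200r1 differed between the slides. NB_Control minus NB_FACS was 1.92 within slide 1 and 3.35 within slide 2, and NB_Stim minus NB_Control was -0.91 and -2.69. The call of the cytokine comparison was lost with only the arrays of the groups compared (adjusted p = 0.11), with Tukey's adjusted test (adjusted p = 0.336), and in 6 of the 11 fits that left out 1 array (adjusted p up to 0.101), namely replicate 2 of NB_FACS, any replicate of NB_Control, or replicate 2 or 3 of NB_Stim. With cultured replicates 1 and 2 averaged the adjusted p was 0.113. NB_Stim passed against NB_FACS within slide 1 (1.01, adjusted p = 0.00298), with scaling to the 75th percentile (0.95, adjusted p = 0.0398), with only probes well above background on all arrays (0.89, adjusted p = 0.0472), and without replicate 3 of NB_Control (0.89, adjusted p = 0.0263) or of NB_Stim (1.17, adjusted p = 0.0183). After normexp correction the difference of NB_Control from NB_FACS was 1.49 (adjusted p = 0.000292).

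Sirpa, the receptor for CD47 that restrains phagocytosis, was lowest with the cytokines. Its level was 8.71 and 8.65 in A_FACS, 9.22, 9.05 and 8.97 in NB_FACS, 8.58, 8.64 and 8.93 in NB_Control, and 8.18, 8.09 and 7.97 in NB_Stim. The NB_Stim arrays lay below all others, the NB_FACS arrays above all others, and NB_Control overlapped with A_FACS. NB_Stim was lower by a difference of -0.64 from NB_Control (SE 0.14, limma adjusted p = 0.037) and of -1.0 from NB_FACS (adjusted p = 0.000468). NB_Control differed from NB_FACS by -0.36 (95% interval -0.67 to -0.05, adjusted p = 0.0771), and A_FACS from NB_FACS by -0.40 (interval -0.75 to -0.05, adjusted p = 0.0939), so that these neighbours were not separated by the test.

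For Sirpa, NB_Stim minus NB_Control was -0.48 within slide 1 and -0.96 within slide 2. The call was lost with only the arrays of the groups compared (adjusted p = 0.0981), with Tukey's adjusted test (adjusted p = 0.132), and in 7 of the 11 fits that left out 1 array (adjusted p up to 0.126), namely replicate 2 of NB_FACS or any replicate of NB_Control or NB_Stim. It was also lost with cultured replicates 1 and 2 averaged (adjusted p = 0.224), within slide 1 (adjusted p = 0.0694) and with no filter on dim probes (adjusted p = 0.0512). NB_Control passed against NB_FACS within slide 1, with a difference of -0.53 (limma adjusted p = 0.0116), while the difference within slide 2 was -0.04. It passed there under 3 of 24 alternative settings in all, 1 of them a fit that left out 1 array. A_FACS passed against NB_FACS under 1 of 23 alternative settings.

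Lag3, a checkpoint receptor best known from T cells, passed none of the tests between groups in the fit over all 11 arrays. Its level was 8.99 and 8.98 in A_FACS, 8.61, 8.49 and 8.95 in NB_FACS, 8.49, 8.50 and 9.07 in NB_Control, and 8.48, 8.51 and 8.64 in NB_Stim. In each newborn group the array on slide 2 was the highest. NB_Control and NB_FACS differed by 0 (95% interval -0.42 to 0.42, limma adjusted p = 0.998), NB_Stim and NB_Control by -0.14 (interval -0.56 to 0.28, adjusted p = 0.838), and A_FACS and NB_FACS by 0.30 (interval -0.16 to 0.77, adjusted p = 0.343). With the replicate number as a block the last difference was 0.43 and passed (adjusted p = 0.0483), although adult and newborn samples share only a number. It also passed with the slide as a block, and under 3 of 23 alternative settings in all. Within slide 1, which held both adult arrays, A_FACS was 0.44 above NB_FACS. The T cell gene Cd3e had group means of 3.74 to 4.16, and was detected above background on all 11 arrays. Cd3d, also a T cell gene, had group means of 3.68 to 4.24. It was above background on both adult arrays and on 2 of 3 arrays in each newborn group. The part of T cells in the Lag3 signal was not tested.

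Of the PD-1 ligands, Cd274 was higher in culture, with and without the cytokines, than in sorted newborn cells. Its level was 8.68 and 9.35 in A_FACS, 7.36, 7.79 and 8.09 in NB_FACS, 10.29, 10.29 and 10.03 in NB_Control, and 11.27, 11.09 and 10.35 in NB_Stim. The order was NB_FACS, A_FACS, NB_Control and NB_Stim with no overlap between neighbours. NB_Control was 5.50-fold above NB_FACS (log2 difference 2.46, SE 0.28, limma adjusted p = 0.000152) and NB_Stim 8.94-fold (log2 difference 3.16, adjusted p = 3.5e-05). NB_Stim stood 0.70 above NB_Control (95% interval 0.07 to 1.33), which did not pass (adjusted p = 0.269). That difference was 0.89 within slide 1 and 0.32 within slide 2.

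A_FACS was 2.40-fold above NB_FACS for Cd274 (log2 difference 1.26, SE 0.32, limma adjusted p = 0.018). The call was lost without replicate 2 of A_FACS (adjusted p = 0.14), without replicate 1 of NB_FACS (adjusted p = 0.0513) and with Tukey's adjusted test (adjusted p = 0.167). The replicates of A_FACS were 8.68 and 9.35, and the highest NB_FACS array was 8.09.

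Pdcd1lg2, the neighbouring gene of Cd274, did not follow it by the test. Its level was 4.11 and 4.31 in A_FACS, 4.19, 4.21 and 3.87 in NB_FACS, 4.56, 4.71 and 4.14 in NB_Control, and 4.74, 4.61 and 3.57 in NB_Stim. The probe was well above background on all 11 arrays, and all 4 groups overlapped with at least 1 other. NB_Control differed from NB_FACS by 0.38 (95% interval -0.28 to 1.04, limma adjusted p = 0.385), NB_Stim from NB_Control by -0.16 (interval -0.82 to 0.49, adjusted p = 0.894) and A_FACS from NB_FACS by 0.12 (interval -0.61 to 0.85, adjusted p = 0.835). The difference of NB_Control from NB_FACS passed under 1 of 24 alternative settings. NB_Stim differed from NB_FACS by 0.22 (adjusted p = 0.618), which passed within slide 1 (0.47, adjusted p = 0.0228) and without replicate 3 of NB_Stim (0.59, adjusted p = 0.0494). The interval of the culture difference lies below the rise measured for Cd274. However, Pdcd1lg2 was dim, with group means of 4.09 to 4.47 against 7.75 to 10.91 for Cd274. These differences were therefore not measured at like intensity. Within each newborn group the array on slide 2 was the lowest for Pdcd1lg2.

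The adult cells set against the cultured cells gave 7 called members in each case, against 40.8% of all genes for NB_Control and 40.2% for NB_Stim. A_FACS was higher for Siglech, Siglece, Cd33, Havcr2 and Lair1 against both cultured groups, and for Sirpa against NB_Stim (0.60, limma adjusted p = 0.0119). It was lower for Cd274 against both (-1.19 and -1.90, adjusted p = 0.0133 and 0.00118) and for Cd200r1 against NB_Control (-2.36, adjusted p = 0.000573). Cd200r1 against NB_Stim (-0.86, adjusted p = 0.0787) did not pass.

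For each member, 2 genes with the most similar pattern over the 11 arrays were taken from 16661 candidates by Pearson correlation, as a description only, since the arrays share groups. Those of Siglech were Dyrk2 (0.993) and Icosl (0.992), those of Siglece Thada (0.994) and Orai1 (0.988), and those of Cd33 Arhgap4 (0.992) and Tgif2 (0.99). Lair1 was closest to Mir6236 (0.987) and Rgs2 (0.982). Havcr2 was closest to Naip5 (0.989) and Csnk1e (0.986), with Naip5 at 8.30 in NB_FACS, 7.64 in NB_Control and 8.28 in NB_Stim. Cd200r1 was closest to 3830406C13Rik (0.97) and to Clec4b1 (0.961), a C-type lectin receptor at 5.24 in NB_FACS, 9.91 in NB_Control and 7.19 in NB_Stim. Cd274 was closest to Osbpl3 (0.987) and Rgs11 (0.982), Sirpa to Mon1b (0.953) and Cdk6 (0.95), Lag3 to Kmt2d (0.957) and Wfdc15b (0.93), and Pdcd1lg2 to Asxl3 (0.966) and Yif1a (0.954).

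Other inhibitory receptors of myeloid cells moved in both directions. Of 19 tested, 7 were higher and 3 lower in NB_Control than in NB_FACS (52.6% called, against 29.7% of all genes). The median difference was 0.07, beside 0.087 for all genes. Pirb, a paired receptor for MHC class I, was 12.9-fold higher (3.69, limma adjusted p = 1.72e-06) and Cd72, a C-type lectin, 9.35-fold (3.23, adjusted p = 2.17e-05). Siglecf (-3.07, adjusted p = 3.29e-05), above background on 1 of 3 NB_Control arrays, fell, as did Pecam1 (-2.08, adjusted p = 0.0163). Pecam1 is also 1 of the 6 endothelial markers, which summed to 4860 to 6630 in NB_FACS, 988 to 1120 in NB_Control and 2070 to 2440 in NB_Stim. Pecam1 itself had group means of 6.84, 4.76 and 4.23 there. The part of endothelial cells in its fall was not tested.

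With the cytokines 4 of these 19 were lower and 0 higher by limma's test (at an unadjusted p under 0.05, 6 and 1), against 2% and 1.4% of all genes. The largest falls were Pirb (-3.57, limma adjusted p = 2.69e-05) and Clec4a2, a C-type lectin with an inhibitory motif (-3.55, adjusted p = 6.41e-05). Against NB_FACS, NB_Stim was higher in 4 and lower in 5 (47.4% called, against 31.1% of all genes). Among them were Cd72 at 3.48 and Fcgr2b, the inhibitory Fc receptor, at 1.97, and Clec4a2 at -3.56 and Pecam1 at -2.61. With age 4 were higher and 1 lower (26.3% called, against 22.7% of all genes). These included Vsir, which encodes the checkpoint protein VISTA, at 1.81 (limma adjusted p = 0.0014), Fcgr2b at 1.37 (adjusted p = 0.000706), and Lilrb4a at -0.95 (adjusted p = 0.0251).

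Activating relatives and their adaptors were mostly higher in culture. Of 13 tested, 9 were higher and 1 lower in NB_Control than in NB_FACS (76.9% called, against 29.7% of all genes). The median was 0.82 beside 0.087 for all genes. The probes of Sirpb1b, an activating relative of Sirpa, were not well above background on any NB_FACS array, and NB_Control was at least 15.8-fold higher (limma adjusted p = 2.38e-05). Sirpb1a, above background on 1 of 3 NB_FACS arrays, read 6.76 in NB_Control and 2.06 in NB_FACS (adjusted p = 2.06e-05). These genes belong to a family of near-identical copies whose signals the probes may not separate. Siglec15 was lower (-1.66, adjusted p = 0.00448). In NB_Stim against NB_FACS 8 were higher and 0 lower (61.5% called, against 31.1% of all genes). NB_Stim was at least 6.27-fold above NB_FACS for Sirpb1b, and Sirpb1a was at 3.30. In both NB_Stim against NB_Control and A_FACS against NB_FACS 0 of the 13 passed limma's test, against 3.4% and 22.7% of all genes. At an unadjusted p under 0.05 there were 2 lower in the former and 1 higher in the latter.

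Of 14 phosphatases, kinases and adaptors of inhibitory signalling, 3 were higher and 4 lower in NB_Control than in NB_FACS. Dok1 (0.80) and Inppl1 (0.68) rose, and the Src family kinase gene Fyn (-1.05) fell. With the cytokines 2 fell and 0 rose, among them the adaptor Dok2 (-0.59, limma adjusted p = 0.0389). In NB_Stim against NB_FACS 1 was higher (Inppl1, 0.57) and 4 were lower, among them Fyn (-0.95). With age 4 were higher and 1 lower, including Inpp5d, which encodes the lipid phosphatase SHIP1 (0.93, limma adjusted p = 0.0238), and Fyn (-1.41, adjusted p = 0.00155). By comparison in that order, 50%, 14.3%, 35.7% and 35.7% of the list were called, against 29.7%, 3.4%, 31.1% and 22.7% of all genes.

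Of the 13 ligands and counter-receptors tested, 4 were higher and 2 lower in NB_Control than in NB_FACS. Beside the collagens, Ceacam1, a partner of TIM-3, fell (-1.42, limma adjusted p = 0.00014), as did Hmgb1 (-0.43, adjusted p = 0.0301). With the cytokines 1 fell, Col3a1 (-1.12, adjusted p = 0.03), and 0 rose. In NB_Stim against NB_FACS Col1a1 (4.54) and Col3a1 (2.88) were higher and Ceacam1 (-1.32) lower, among 4 higher and 1 lower. With age 1 rose, Ceacam1 (0.58, limma adjusted p = 0.042), and 4 fell, among them Col1a1 (-3.22, adjusted p = 0.00158), above background on 1 of 2 adult arrays. The shares called in these comparisons were 46.2%, 7.69%, 38.5% and 38.5%, against 29.7%, 3.4%, 31.1% and 22.7% of all genes.

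Of 12 regulators of the PD-1 ligands, 2 were higher in NB_Control than in NB_FACS and 5 were lower. Cmtm4, a stabiliser of the PD-L1 protein, rose by 1.62 (limma adjusted p = 0.000272). Nfkb1 (-2.45, adjusted p = 0.00011) and Jak2 (-1.73, adjusted p = 7.46e-05) fell. With the cytokines 0 of the 12 passed limma's test, and at an unadjusted p under 0.05 there were 1 higher and 3 lower. In NB_Stim against NB_FACS Cmtm4 (1.90) was among 2 that were higher, and Nfkb1 (-2.42) and Jak2 (-1.28) were among 3 that were lower. With age 5 rose and 1 fell, with Cmtm6 at 1.30 (limma adjusted p = 0.000995), Irf1 at 1.12 (adjusted p = 0.00524) and Jak2 at -0.63 (adjusted p = 0.0452). Called shares of this list, in the same order, were 58.3%, 0%, 41.7% and 50%, against 29.7%, 3.4%, 31.1% and 22.7% of all genes.

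Of 13 costimulatory ligands, Cd86 (-2.60, limma adjusted p = 0.000211) and Icosl (-1.85, adjusted p = 6.18e-06) were the 2 that fell from NB_FACS to NB_Control, and 0 rose. NB_Stim against NB_FACS also had 0 higher, with Cd86 (-2.30) and Icosl (-1.54) lower, and with the cytokines 0 passed limma's test (1 higher at an unadjusted p under 0.05). With age Icosl was higher (0.65, limma adjusted p = 0.00901) and Tnfsf18 lower (-1.18, adjusted p = 0.00573). In that order 15.4%, 15.4%, 0% and 15.4% of the list were called, against 29.7%, 31.1%, 3.4% and 22.7% of all genes. With 13 genes these gaps amount to few genes, and no test over the list was made.

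Of 11 genes that make, transfer or remove sialic acid, the ligand of the Siglec receptors, 4 were higher and 1 lower in NB_Control than in NB_FACS. St8sia4, a polysialyltransferase, rose by 1.60 (limma adjusted p = 0.00046) and Slc35a1, the transporter of CMP-sialic acid, by 0.67 (adjusted p = 0.0094), while the sialyltransferase gene St3gal6 fell (-3.20, adjusted p = 5.27e-05). With the cytokines St8sia4 was the 1 that passed (-1.28, adjusted p = 0.013). In NB_Stim against NB_FACS 3 were higher, including Cmah (1.48) and Cmas (0.94), and St3gal6 was lower (-3.19). With age St3gal6 (2.44, limma adjusted p = 0.001) and Slc35a1 (0.56, adjusted p = 0.0466) rose and 0 fell. These counts make up 45.5%, 9.09%, 36.4% and 18.2% of the list, against 29.7%, 3.4%, 31.1% and 22.7% of all genes.

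**Figure D5:**
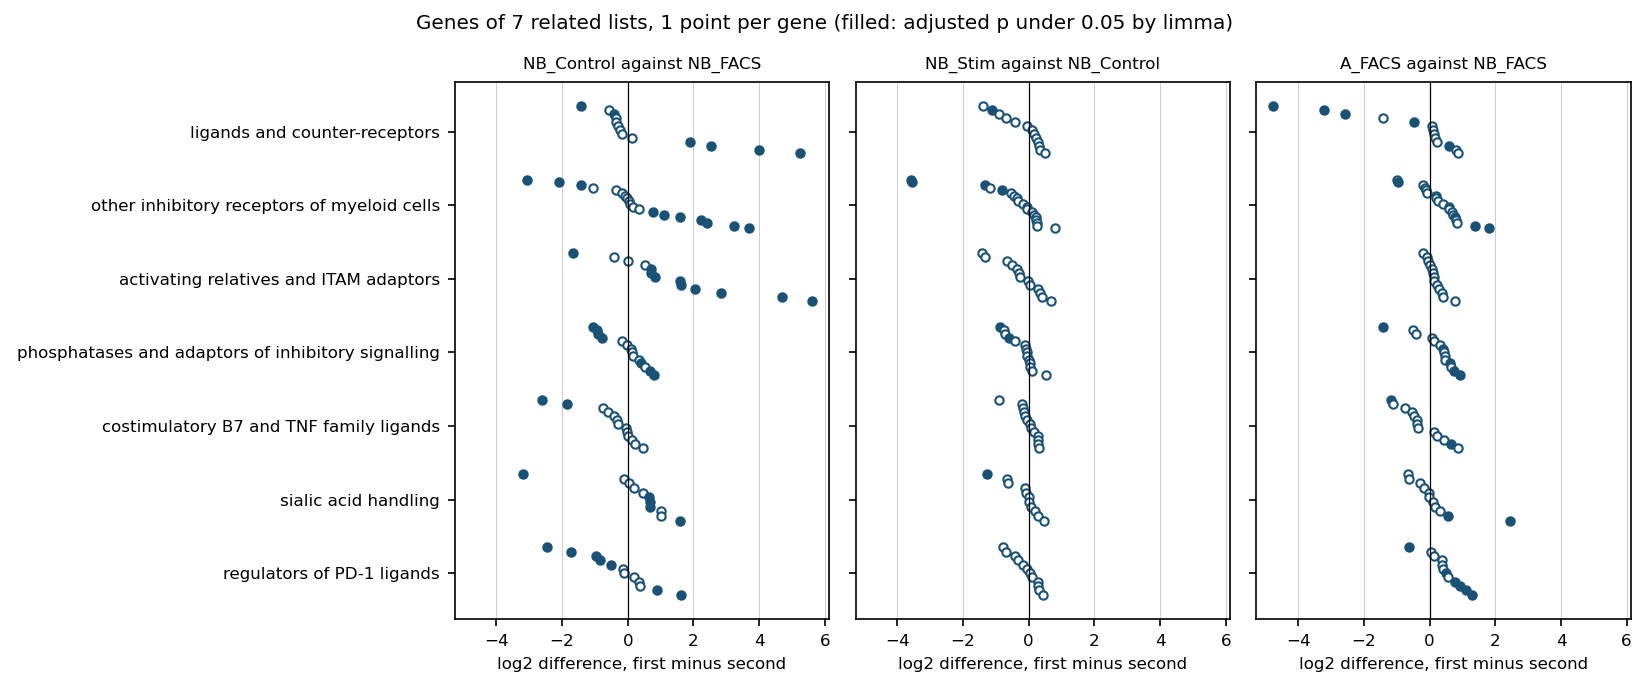
Log2 difference (horizontal axis) of each tested gene of 7 related lists (vertical axis), 1 point per gene, in NB_Control against NB_FACS, NB_Stim against NB_Control and A_FACS against NB_FACS. Filled points passed limma's moderated test. Among activating relatives 10 of 13 are filled in the first panel and 0 in the others, against 29.7%, 3.4% and 22.7% of all genes.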

How the data were processed

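The authors deposited, per the labels and file headers, 1 scanner file per array with the background-subtracted signal intensity of each spot from Feature Extraction 11.5.1.1, together with a table of the same intensity values. For all 62927 entries of that table the values were checked, and 0 differed beyond a relative tolerance of 1e-05. From the deposited intensity, log2 values of 60037 probes were quantile-normalised here over all arrays in limma 3.58.1 (R 4.3.3), as the study's methods state for its own calculations. Figures were drawn with matplotlib.

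A probe was kept (44738 in all) where at least 1 group had it well above background throughout, and kept probes were averaged per gene (19565 genes), with symbols matched through RefSeq accessions for 60.4% of probes. A probe below background in a whole group was given as a bound. Each gene was fitted with 1 mean per group over all 11 arrays, and p-values of limma's moderated two-sided test were adjusted by Benjamini-Hochberg over all genes, with calls at an adjusted p under 0.05. The script was tested on simulated data. The number of arrays limits the precision.

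The study describes its replicates as independent biological samples. The median absolute log2 difference between replicates 1 and 2 was 0.119 in NB_Control, 0.128 in NB_Stim and 0.169 in NB_FACS. Pairs with replicate 3 stood at 0.298 to 0.363 in these groups. As cultured replicates 1 and 2 lay closest, 1 alternative averaged them. Whether they were less independent cannot be told from slide, since replicate 3 was on slide 2. Newborn replicate numbers were used as pairs in the alternative with a replicate block, and not in the fit with 1 mean per group. Deviations from the group means correlated at 0.112 to 0.367 for same-numbered newborn arrays of slide 1. Differently numbered newborn arrays of slide 1 correlated at 0.185 to 0.364, so these ranges overlapped. The arrays of replicate 3 correlated at 0.441 to 0.489. Replicate 3 is also slide 2, so for it pairing by number cannot be told from slide. The members and related lists were chosen with earlier results of these data known. All members were named, and of each related list the up to 2 largest rises and falls among called genes. Values of a few list genes are not reported here, though the list counts include them. No spot was saturated. Alternatives covered scaling, background correction, filters, slide, replicate block, tests, probes and single arrays.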

Additional observations from a re-analysis of the deposited data

How the results depend on the processing

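Calls in NB_Stim against NB_Control were the least stable. There, 0 members were called with only the groups compared, with Tukey's adjusted test and with cultured replicates 1 and 2 averaged, and 0 to 3 when single arrays were left out, and all genes called went from 666 to 1008 (normexp), 1474 (slide block), 1030 (within slide 1), 1192 (replicate block), 183 (Tukey's), 118 (averaged) and 304 to 703 (single arrays left out). In A_FACS against NB_FACS Tukey's test called 3 members and leaving out single arrays 4 to 5, with 2925 genes called using only the groups compared, 2015 with Tukey's, and 2456 to 5128 when arrays were left out. Tukey's test called 3548 genes in NB_Control against NB_FACS and 3621 in NB_Stim against NB_FACS. Leaving out probes one at a time and fitting probes singly were chosen after seeing the data.

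None of the differences that changed sign was called in the fit over all 11 arrays or under the setting that turned it, but Siglech in NB_Stim against NB_Control and Pdcd1lg2 in NB_Stim against NB_FACS were called within slide 1 and without replicate 3 of NB_Stim. For Lag3, NB_Control against NB_FACS was 0.01 (75th percentile), 0.04 (normexp), 0.11 (slide 2), 0.10 (averaged) and -0.19 to 0.13 (single arrays left out), and NB_Stim against NB_Control 0 (slide 1) and -0.24 to 0.05. For Pdcd1lg2, NB_Stim against NB_Control was 0.04 (75th percentile), 0.04 (slide 1) and -0.38 to 0.21, A_FACS against NB_FACS -0.10 (slide block and replicate block), and NB_Stim against NB_FACS -0.30 (slide 2) and 0 to 0.59. Siglech in NB_Stim against NB_Control was -0.10 (brightest probe) and -0.14 (slide 2). Siglece there was -0.21 (slide 2), -0.02 (without the probe of XM_006541321.1) and -0.05 to 0.25. Cd200r1 in A_FACS against NB_FACS was 0 (slide block, replicate block), -0.12 (slide 1) and -0.12 to 0.15, and Havcr2 in NB_Stim against NB_FACS 0.02 (slide 1) and -0.07 to 0.06. The cause was not tested. With the replicate block the call of Lag3 in A_FACS against NB_FACS changed (0.43, limma adjusted p = 0.0483), as it did with the slide block (adjusted p = 0.032), and no other call of a member did under the replicate block.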
